A study of Mus musculus with 23 samples.

Results

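The 8 small leucine-rich proteoglycans Dcn, Lum, Bgn, Fmod, Ogn, Omd, Aspn and Prelp were taken from a table of 54347 mouse genes by matching the gene identifiers, without their version, to symbols. All 8 were found, and all 8 passed the filter on low counts. They were chosen by name and not by their measured values. Levels come from RNA sequencing of 23 libraries of cells from the labial cervical loop, the epithelial fold at the growing end of the lower incisor, of mice at postnatal day 2. The mice carried a reporter in which the endogenous Sox2 promoter drives green fluorescent protein, and cells were divided by flow sorting into Sox2-positive cells, called dental epithelial stem cells in the labels, and Sox2-negative cells. Both populations of both batches carry this reporter, and no further allele or treatment is named. Batch A held 6 Sox2-negative and 6 Sox2-positive libraries, and batch B held 4 and 7. The batches were separate days and separate mice. The labels do not say whether libraries of the same batch and population came from different mice, so n counts libraries and p-values measure the spread between them, which may be technical.

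Small leucine-rich proteoglycans are secreted proteins built around a curved stack of leucine-rich repeats, most of which carry chains of chondroitin, dermatan or keratan sulfate. They bind collagen fibrils and set their diameter and spacing, and several also bind growth factors such as TGF-beta and bone morphogenetic proteins. Fibroblasts, osteoblasts, odontoblasts and other connective tissue cells make most of them, and in teeth they are known from the dental papilla, the dental follicle, predentin and the periodontal ligament. The family is divided into classes: Dcn (decorin), Bgn (biglycan) and Aspn (asporin) belong to the first, Lum (lumican), Fmod (fibromodulin), Omd (osteomodulin) and Prelp to the second, and Ogn (osteoglycin) to the third.

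The members lie in 4 places of the genome (GRCm38, GENCODE release M21). Dcn, at chr10:97479609-97518143, and Lum, at chr10:97565128-97572703, are neighbours on the plus strand with 47.0 kb between them. Aspn, at chr13:49544443-49567565, Omd, at chr13:49582462-49592822, and Ogn, at chr13:49608046-49624501, stand in a row on the plus strand with gaps of 14.9 and 15.2 kb. The row lies inside the span of Cenpp, a centromere protein gene on the opposite strand, with which Aspn shares 7 exon bases and Omd and Ogn share 0. Prelp, at chr1:133910304-133921414 on the minus strand, and Fmod, at chr1:134037254-134048277 on the plus strand, are 115.8 kb apart. Bgn stands alone at chrX:73483602-73495933 on the plus strand. Prelp shares 350 exon bases with the antisense gene Gm15851, and no strand setting is given for the counts, so reads of the pair cannot be told apart. Gm15851 was listed at 0 in every library.

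RefSeq promoter windows (GRCm38.p6, 250 bases before to 50 after the start) were at hand for 6 of the 8 members: Bgn, Fmod, Ogn, Omd, Aspn and Prelp. The 250 bases before the start are shown for the 3 chromosome 13 neighbours, which each fell in Sox2-positive cells. They are also shown for Bgn, which fell least of the members that fell. Capitals mark matches, on either strand, to the TATA box letters TATAAA and the GC box letters GGGCGG.
Aspn: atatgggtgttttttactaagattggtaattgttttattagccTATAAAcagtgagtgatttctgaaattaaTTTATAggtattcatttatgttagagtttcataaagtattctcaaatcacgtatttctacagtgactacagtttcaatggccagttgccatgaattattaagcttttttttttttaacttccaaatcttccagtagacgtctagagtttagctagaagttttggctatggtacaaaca
Omd: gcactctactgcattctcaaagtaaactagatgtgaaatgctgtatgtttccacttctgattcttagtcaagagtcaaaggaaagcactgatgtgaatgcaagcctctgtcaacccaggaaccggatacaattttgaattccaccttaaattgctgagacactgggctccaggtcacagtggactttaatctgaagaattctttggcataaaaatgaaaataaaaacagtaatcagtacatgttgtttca
Ogn: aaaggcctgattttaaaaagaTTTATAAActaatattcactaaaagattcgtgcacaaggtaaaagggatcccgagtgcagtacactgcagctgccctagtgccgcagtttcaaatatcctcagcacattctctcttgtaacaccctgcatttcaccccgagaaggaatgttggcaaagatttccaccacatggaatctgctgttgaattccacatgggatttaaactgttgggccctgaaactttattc
Bgn: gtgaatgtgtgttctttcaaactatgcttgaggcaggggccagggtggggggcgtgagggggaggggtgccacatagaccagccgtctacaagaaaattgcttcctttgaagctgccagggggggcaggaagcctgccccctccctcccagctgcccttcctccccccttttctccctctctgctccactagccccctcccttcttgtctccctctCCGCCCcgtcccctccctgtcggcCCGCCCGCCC
These stretches run, 5′ to 3′ on the plus strand, over chr13:49544193-49544442 for Aspn, chr13:49582212-49582461 for Omd, chr13:49607765-49608014 for Ogn and chrX:73483351-73483600 for Bgn. In the 300-base windows the GC content was 31% for Aspn, 37.7% for Omd, 42.3% for Ogn and 63.7% for Bgn, against a median of 52.7% over 32851 mouse promoters. Fmod, at 51.0%, and Prelp, at 55.3%, were near that median. Bgn held 3 matches to the GC box, 34, 10 and 6 bases before its start, all as the reverse complement CCGCCC, and the last pair of matches overlaps. The GC box occurred in 35.7% of all promoters. Aspn held TATAAA 207 bases before its start and its reverse complement TTTATA 178 bases before it, and Ogn held overlapping matches 229 and 227 bases before its start. TATAAA occurred in 13.6% of all promoters, and its matches here are far from the start. The letters CACCTG, the E-box of ZEB and SNAIL factors, were found in none of the 6 windows and in 20.2% of all promoters. Fmod, Omd and Prelp held no match to any of the 3 motifs.

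Library totals ran from 2305778 to 9541443 estimated counts. Levels are in CPM, counts scaled to a common total, on library totals scaled by the TMM method. On this scale 3 counts, the least taken as a level, corresponded to 0.357 to 1.30 CPM. Such floors cover counting error only. In batch B the libraries numbered 1 and 2 of both populations were known from earlier results to stand apart from the others by their values, not by any label, and each comparison that uses batch B was also fitted without them. Markers of dental epithelium, a list of 13 genes, summed in Sox2-positive libraries to 5346 to 5764 CPM (batch A) and 6068 to 8822 CPM (batch B), against 240.1 to 376 and 530.0 to 640.2 CPM in Sox2-negative ones. All 13 were called higher in Sox2-positive cells. Mesenchyme markers, also 13 genes, summed in Sox2-negative libraries to 11472 to 12988 CPM (batch A) and 10714 to 13714 CPM (batch B), against 1228 to 1779.8 and 612 to 693 CPM in Sox2-positive ones. Among them 12 of 13 were lower in Sox2-positive cells and Lhx6 was higher. Twist1 and Twist2 were at 0 in every Sox2-positive library of both batches. The 10 odontoblast and osteoblast markers were all lower in Sox2-positive cells, as were the 10 leukocyte, 8 endothelial and 7 erythroid markers. Other lists went the opposite way or were mixed. Of 8 Schwann and neural crest markers 7 were called higher in Sox2-positive cells, and their mean sum there was 1548% of the Sox2-negative one in batch A and 112% in batch B. Of 5 skeletal muscle markers tested 4 were called higher, with sums of 167 to 321 CPM in batch B Sox2-positive libraries and at most 16.0 CPM in any other library. Of 9 pericyte and smooth muscle markers tested 6 were lower and 1 higher, and the mean Sox2-positive sum was 28.9% and 91.9% of the Sox2-negative one in batches A and B. The odontoblast and osteoblast sum was 3895 to 6369.9 CPM (batch A) and 2444 to 3662 CPM (batch B) in Sox2-negative cells, against 47.3 to 73.5 and 57.6 to 136 CPM in Sox2-positive ones. In bulk libraries such as these, fewer cells of a type and less RNA per cell cannot be told apart, and the part of these cell types in the results below was not tested.

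The comparison of the populations asks which of these matrix genes set the Sox2-positive cells apart from the Sox2-negative cells of the region. Dcn, Lum, Bgn, Ogn, Omd and Aspn fell in Sox2-positive cells in both batches, by 2.42-fold (batch B) and 3.14-fold (batch A) for Bgn and from 9.54-fold, for Omd in batch B, upward for the other 5. Fmod, with means between 14.1 and 21.7 CPM in the 4 groups, did not pass the test. Prelp was the lowest member in Sox2-negative cells and rose in Sox2-positive cells over both batches and in batch B.
Over both batches 7 of 8 members were called at an adjusted p under 0.05, 6 lower and 1 higher, where 57.5% of all 17190 genes tested were called, 32.5% lower and 24.9% higher. In batch A 6 members were called, all lower, with 43.4% of all genes called and 24.2% lower. In batch B 7 were called, 6 lower and 1 higher, with 54.7% of all genes called, 27.6% lower and 27.1% higher. The median log2 fold change over the 8 members was -4.73 over both batches, -4.81 in batch A and -4.13 in batch B, beside medians over all genes tested of -0.12, -0.038 and 0.013. In each batch the 6 members that fell had ranges that did not overlap between the populations. For each of these 6 the exact permutation test of mean log2(CPM + 1), two-sided, gave 0.00216 in batch A and 0.00606 in batch B, the smallest p either batch allows. The share of all genes tested with such ranges or such a p was not counted, and the members may not differ from it.

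**Figure D1:**
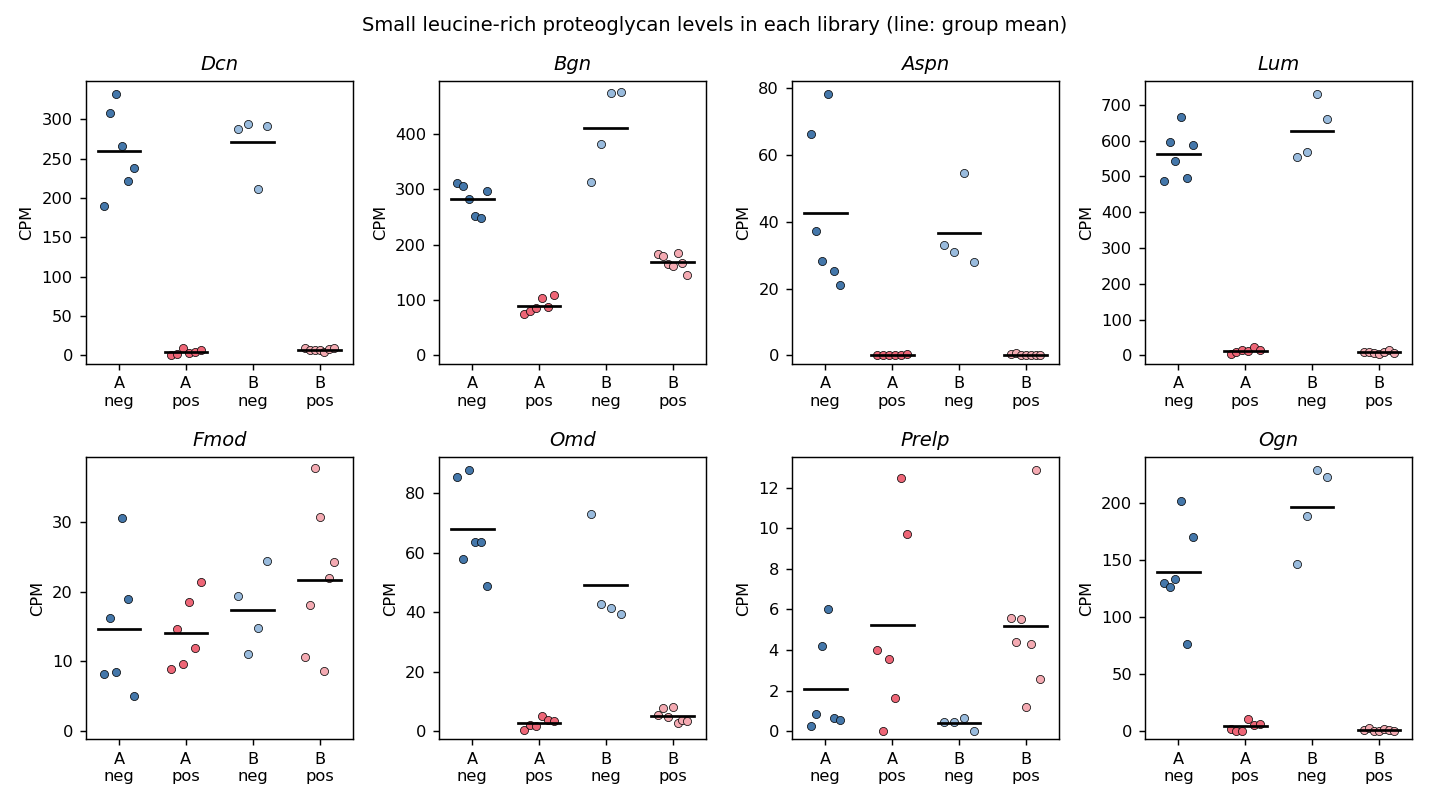
Level of each member in every library, in CPM on a linear axis of its own per panel, for batch A (A) and batch B (B) Sox2-negative (neg) and Sox2-positive (pos) libraries. Points are libraries and lines are group means; the Sox2-positive points of Dcn, Lum, Ogn, Omd and Aspn lie near 0, those of Bgn lie between 74.2 and 184 CPM, and those of Fmod overlap the Sox2-negative points.

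Decorin, whose core protein binds type I collagen fibrils and TGF-beta, took second place among the members in Sox2-negative cells of batch A, by CPM per kilobase of transcript, and the place after Bgn in batch B. Dcn ranged from 191 to 332 CPM in batch A Sox2-negative libraries (median 252), and was at 288, 295, 212 and 291 CPM in the 4 of batch B. In Sox2-positive libraries it ranged from 0.886 to 9.78 CPM in batch A (median 3.99) and from 4.66 to 9.51 CPM in batch B (median 7.06). Every Sox2-positive library was thus far under every Sox2-negative one, and the batches overlapped within each population. Means were 259 ± 53.6 (SD, n = 6) and 4.58 ± 3.28 CPM (n = 6) in batch A, and 271 ± 39.7 (n = 4) and 7.42 ± 1.71 CPM (n = 7) in batch B. The log2 fold change of Dcn over both batches was -5.50 (SE 0.24, edgeR adjusted p 7.59e-17), and Sox2-positive cells held 1.77% of the Sox2-negative mean in batch A and 2.73% in batch B.

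Biglycan, the closest relative of decorin among the members and a component of bone and dentin matrix, fell least. Bgn ranged from 248 to 312 CPM in batch A Sox2-negative libraries (median 289.8) and was at 314, 382, 473 and 476 CPM in those of batch B. In Sox2-positive libraries it ranged from 74.2 to 108 CPM in batch A (median 86.5) and from 146 to 184 CPM in batch B (median 168). On TMM-scaled totals no 2 of the 4 groups overlapped, in the order batch B negative, batch A negative, batch B positive, batch A positive. The Sox2-negative groups were only just apart, reaching up to 312 CPM in batch A and down to 314 CPM in batch B. On unscaled library totals the Sox2-negative groups overlapped. Means were 283 ± 27.5 and 90.0 ± 13.4 CPM in batch A (SD, n = 6 and 6), and 411 ± 78.1 and 169.6 ± 14 CPM in batch B (n = 4 and 7). The log2 fold change of Bgn was -1.48 over both batches (SE 0.10, edgeR adjusted p 5.20e-13), -1.65 in batch A (SE 0.12) and -1.21 in batch B (SE 0.12). Sox2-positive cells thus held 31.8% and 41.2% of the Sox2-negative mean, the largest shares among the 6 members that fell.

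Asporin, a collagen-binding member whose core begins with a run of aspartate and carries no glycosaminoglycan chain, had nearly all of its counts in the Sox2-negative libraries. Aspn ranged from 21.2 to 78.2 CPM in those of batch A (median 32.7) and was at 32.9, 30.9, 54.6 and 27.9 CPM in those of batch B. In Sox2-positive libraries 5 of 6 of batch A and 5 of 7 of batch B had no count, and the remaining ones had 0.319, 0.337 and 0.706 CPM. All 13 Sox2-positive libraries were under all 10 Sox2-negative ones. Summed over libraries, Aspn had 1036 counts against 2 in batch A and 982 against 7 in batch B. Per TMM-scaled total this was a 647-fold difference in batch A (95% exact interval 179 to 5351) and a 177-fold difference in batch B (85.7 to 442), intervals that cover counting error only. The fitted log2 fold change of -8.02 (SE 0.51, edgeR adjusted p 4.21e-13) depends on the prior count and is no bound.

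Lumican, which spaces collagen fibrils and carries keratan sulfate in the cornea, was the most abundant member in Sox2-negative cells by CPM per kilobase. Lum ranged from 488 to 667 CPM in batch A Sox2-negative libraries (median 566) and was at 555, 568, 730.2 and 660.0 CPM in those of batch B. In Sox2-positive libraries it ranged from 3.99 to 23.6 CPM in batch A (median 13.6) and from 5.09 to 15.6 CPM in batch B (median 8.61). The populations did not overlap and the batches did, within each population. Means were 563 ± 68.0 and 13.3 ± 6.76 CPM in batch A (SD, n = 6 and 6), and 628 ± 82.6 and 9.32 ± 3.31 CPM in batch B (n = 4 and 7). The log2 fold change of Lum over both batches was -5.70 (SE 0.21, edgeR adjusted p 3.04e-18).

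Fibromodulin, which competes with lumican for collagen and is abundant in tendon, was not called in either batch. Fmod ranged from 5.11 to 30.6 CPM in batch A Sox2-negative libraries (median 12.3) and was at 19.4, 11.1, 14.8 and 24.5 CPM in those of batch B. In Sox2-positive libraries it ranged from 8.86 to 21.4 CPM in batch A (median 13.3) and from 8.61 to 37.7 CPM in batch B (median 22). All 4 groups overlapped, and each library had at least 19 counts. Means were 14.6 ± 9.44 and 14.1 ± 5.00 CPM in batch A (SD, n = 6 and 6), and 17.4 ± 5.78 and 21.7 ± 10.4 CPM in batch B (n = 4 and 7). The log2 fold change of Fmod was 0.12 over both batches (SE 0.30, edgeR adjusted p 0.747), and exact permutation tests gave 0.777 in batch A and 0.636 in batch B. In batch A its direction depended on the fit, from -0.036 (SE 0.46) to 0.12 with limma-voom.

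Osteomodulin, a keratan sulfate member known from bone and from odontoblasts, fell in both batches. Omd ranged from 48.6 to 87.8 CPM in batch A Sox2-negative libraries (median 63.5) and was at 72.9, 42.8, 41.4 and 39.4 CPM in those of batch B. In Sox2-positive libraries it ranged from 0.443 to 5.22 CPM in batch A (median 2.83) and from 2.87 to 8.0 CPM in batch B (median 4.91). The lowest of these, 0.443 CPM, was 2 counts. Here too the populations were apart, with batches overlapping within each. The log2 fold change of Omd over both batches was -3.95 (SE 0.30, edgeR adjusted p 1.80e-11), with -4.58 in batch A (SE 0.43) and -3.14 in batch B (SE 0.30).

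Prelp, a member with a basic, heparin-binding end that is known to anchor basement membrane to connective tissue, was higher in Sox2-positive cells of batch B. Prelp was at 0.475, 0.450, 0.652 and 0 CPM in the Sox2-negative libraries of batch B, which is 0 to 4 counts, and ranged from 1.21 to 12.9 CPM in its Sox2-positive libraries (median 4.38). In batch A it ranged from 0.258 to 6.02 CPM in Sox2-negative libraries (median 0.742) and from 0 to 12.5 CPM in Sox2-positive libraries (median 3.78). The populations were apart in batch B and overlapped in batch A. Means were 0.394 ± 0.28 and 5.21 ± 3.73 CPM in batch B (SD, n = 4 and 7), and 2.09 ± 2.42 and 5.24 ± 4.84 CPM in batch A (n = 6 and 6). The log2 fold change of Prelp was 3.72 in batch B (SE 0.79, edgeR adjusted p 0.00089, exact permutation p 0.00606), and in batch A it was 1.34 (SE 0.96, edgeR adjusted p 0.281, exact permutation p 0.229). Over both batches it was 2.26 (SE 0.75, edgeR adjusted p 0.0124), and the call was lost without the libraries numbered 1 and 2 of batch B (2.00, edgeR adjusted p 0.0686). The 6 cartilage markers, a tissue in which Prelp is abundant, summed in Sox2-positive libraries to 184 to 269 CPM (batch A) and 283 to 402 CPM (batch B), against 71.2 to 108 and 139.8 to 197 CPM in Sox2-negative ones. Most of this sum was Sox9, which is also expressed outside cartilage and was called higher (1.75, SE 0.12). Of the 5 cartilage markers tested over both batches it was the only one higher, Acan (-5.35, SE 0.86) and Hapln1 (-3.90, SE 0.48) were lower, and the median was -0.55. Matn1 was at 0 in every Sox2-positive library, and the part of these cells in the result was not tested.

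Osteoglycin, also called mimecan and known from bone and cornea, had the largest fitted fall over both batches after asporin. Ogn ranged from 76.0 to 202 CPM in batch A Sox2-negative libraries (median 131) and was at 146, 188, 229 and 222 CPM in those of batch B. In Sox2-positive libraries it ranged from 0.179 to 10.4 CPM in batch A (median 3.93) and from 0 to 2.97 CPM in batch B (median 0.908). Of these, 2 of 6 libraries in batch A and 3 of 7 in batch B had 3 counts or fewer. The lowest Sox2-negative library was thus well above the highest Sox2-positive one. Means were 139.5 ± 42.8 and 4.23 ± 3.98 CPM in batch A (SD, n = 6 and 6), and 196 ± 37.9 and 1.10 ± 1.09 CPM in batch B (n = 4 and 7). The log2 fold change of Ogn over both batches was -6.02 (SE 0.45, edgeR adjusted p 1.25e-11), with -5.05 in batch A (SE 0.59) and -7.29 in batch B (SE 0.39).

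**Figure D2:**
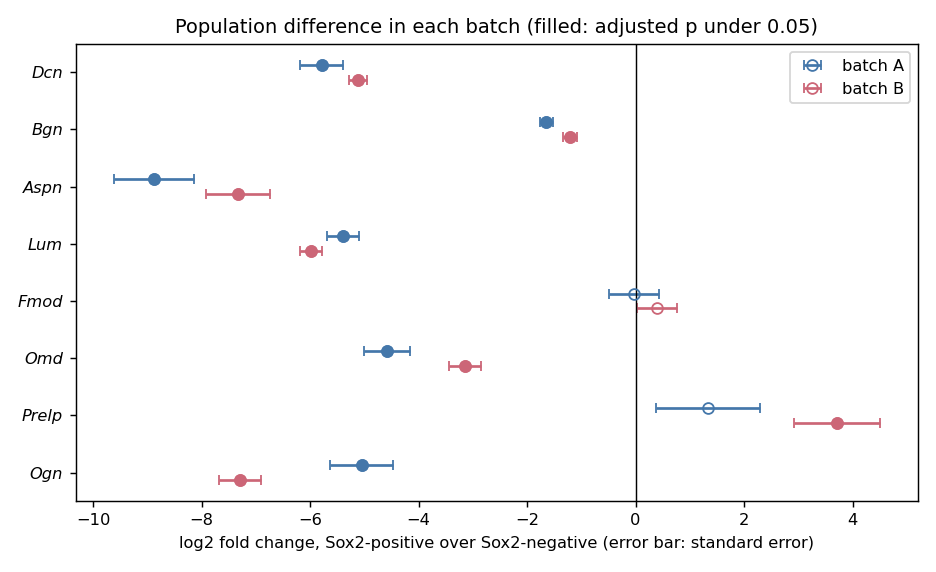
Log2 fold change of each member, Sox2-positive over Sox2-negative, in batch A and in batch B, with standard errors; filled points had an edgeR adjusted p under 0.05. The 6 members that fell lie left of 0 in both batches, from -1.21 for Bgn in batch B to -8.88 for Aspn in batch A, Fmod lies at 0 within its error in batch A, and Prelp lies right of 0.

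An interaction term, batch B minus batch A, tested whether the batches gave unequal population differences. It was called for 0 of 8 members by edgeR, where 7.04% of 17190 genes were called (2.82% with a higher and 4.22% with a lower value in batch B). The lowest adjusted p-values among the members were those of Ogn, Omd and Bgn. The interaction of Ogn was -2.31 (SE 0.75, edgeR adjusted p 0.0625), with a lower Sox2-positive and a higher Sox2-negative mean in batch B than in batch A. That of Omd was 1.36 (SE 0.51, edgeR adjusted p 0.115), and that of Bgn was 0.38 (SE 0.17, edgeR adjusted p 0.216). DESeq2 called 1 member, Omd (1.41, adjusted p 0.0360). Without the filter on low counts Ogn was called (-2.30, SE 0.51, edgeR adjusted p 0.0017). With the filter it passed when library 2 or library 3 of batch A Sox2-positive or library 2 of batch B Sox2-positive was left out (edgeR adjusted p 0.0209, 0.0282 and 0.0244). Those batch A libraries had 1 and 3 counts of Ogn. For Prelp the interaction was 2.31 (SE 1.33, edgeR adjusted p 0.353).

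Levels were then compared between the batches within each population. In Sox2-negative cells 1 of 8 members was called, Bgn, which was higher in batch B, where 11.2% of all genes were called and 5.85% were higher. The difference was 0.54 on the log2 scale (SE 0.13, edgeR adjusted p 0.00596). With total-count scaling it was 0.39 (edgeR adjusted p 0.0553) and no longer called. That scaling moved the median of all genes to -0.15 and the calls from 1005 higher and 919 lower to 661 and 1388. Erythroid markers, 7 genes, summed in these libraries to 53611 to 62038 CPM in batch B and 985 to 1188 CPM in batch A. All 8 endothelial markers (sums of 262 to 418 CPM in batch B against 973 to 1419 CPM in batch A) and 6 of 10 leukocyte markers (623 to 729.5 against 3248 to 3614 CPM) were called lower in batch B. Of the 13 dental epithelium markers 7 were called higher. The part of these cell types in the difference was not tested.
In Sox2-positive cells 2 of 8 members were called, where 10.4% of all genes were called, 4.85% higher and 5.54% lower. Bgn was higher in batch B by 0.91 (SE 0.11, edgeR adjusted p 2.14e-06), or 1.88-fold by means. Ogn was lower in batch B, with a log2 difference of -1.82 (SE 0.59, edgeR adjusted p 0.0485). This call was lost in 17 of the 23 fits that each left out 1 library, and with limma-voom (-1.46, adjusted p 0.428), and the ranges of the batches overlapped. Dcn was called higher in batch B without library 3 of batch A Sox2-positive (1.04, edgeR adjusted p 0.0210), and Omd without library 4 of that group (1.15, edgeR adjusted p 0.0482). With total-count scaling 666 genes were higher and 1214 lower, against 833 and 952. Markers of other cell types also differed between these groups. The 10 pericyte and smooth muscle markers summed to 559.5 to 591 CPM in batch B and 278 to 325 CPM in batch A, none of them at 0 throughout. The 8 Schwann and neural crest markers summed to 84.6 to 120.1 and 1308 to 1584 CPM, and the 7 skeletal muscle markers to 167 to 321 and 0 to 4.14 CPM. Their part in the higher Bgn level was not tested. The batch differences of the remaining members were not called, and their ranges overlapped between the batches in both populations.

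Members were next set against each other per transcript length, as CPM per kilobase of the longest coding transcript. In Sox2-negative cells the 8 members summed to 603 ± 63.4 CPM per kilobase in batch A (SD, n = 6) and 701 ± 62.4 in batch B (n = 4). Lum took 38.2% ± 2.32 and 36.5% ± 2.20 of the sum, Dcn 24.4% ± 3.73 and 22.3% ± 4.5, and Bgn 19.6% ± 2.60 and 24.1% ± 2.58. Ogn, Omd and Aspn followed with 8.91%, 5.05% and 3.02% in batch A, and Fmod and Prelp stayed under 1% in both batches. In Sox2-positive cells the sum was 54.1 ± 11.9 CPM per kilobase in batch A (n = 6) and 89.3 ± 5.40 in batch B (n = 7). Bgn took 69.9% ± 7.51 of it in batch A, between 60.9% and 81.1% over libraries, and 78.5% ± 4.16 in batch B, between 74.3% and 86.2%. Bgn was thus the leading member in each Sox2-positive library, and Lum in each Sox2-negative one. Fmod, at 8.32% ± 2.00 and 7.85% ± 3.84 of the sum, was the third member in batch A after Lum and the second in batch B. Dcn took 4.62% ± 3.33 and 4.75% ± 1.25.

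**Figure D3:**
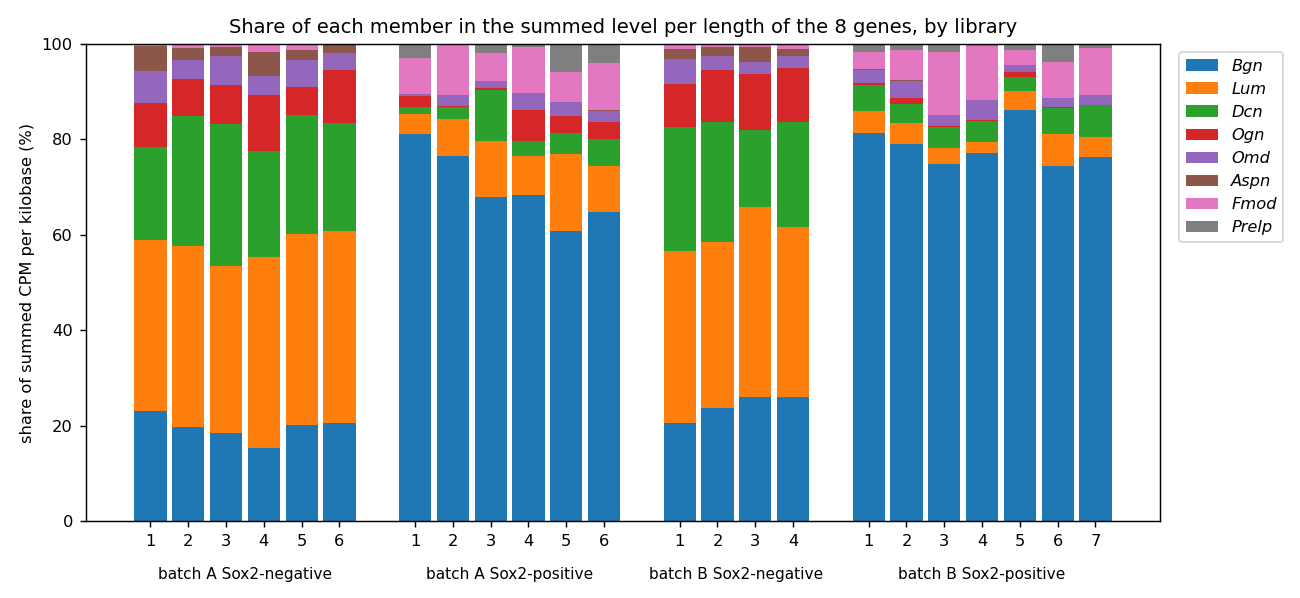
Share of each member in the summed CPM per kilobase of the 8 members, in percent, for every library numbered within its group. Bgn takes 60.9% to 86.2% of the sum in Sox2-positive libraries, where Lum and Dcn make up most of the sum in Sox2-negative ones.

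The members were set beside the mesenchyme markers, since those cells are known to make most of this family. Sox2-positive cells held a median of 7.53% of the Sox2-negative mean over the 13 mesenchyme markers in batch A and 0.605% in batch B. Bgn held 31.8% and 41.2%, above 12 of the 13 markers in each batch, with Lhx6 as the exception. Col1a2, a chain of type I collagen and chosen here after its values were seen, was at 565 ± 66.8 CPM (batch A) and 546 ± 40.5 CPM (batch B) in Sox2-positive libraries. Col1a1, the other chain, was at 424 ± 98.5 and 36.1 ± 11.5 CPM. Lum, by contrast with Bgn, held 2.36% and 1.48%, and Dcn 1.77% and 2.73%. Prrx1, a mesenchymal transcription factor, was at 2.10 and 0.376 CPM in the Sox2-positive means of batches A and B, and Twist1 was at 0 in both.

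**Figure D4:**
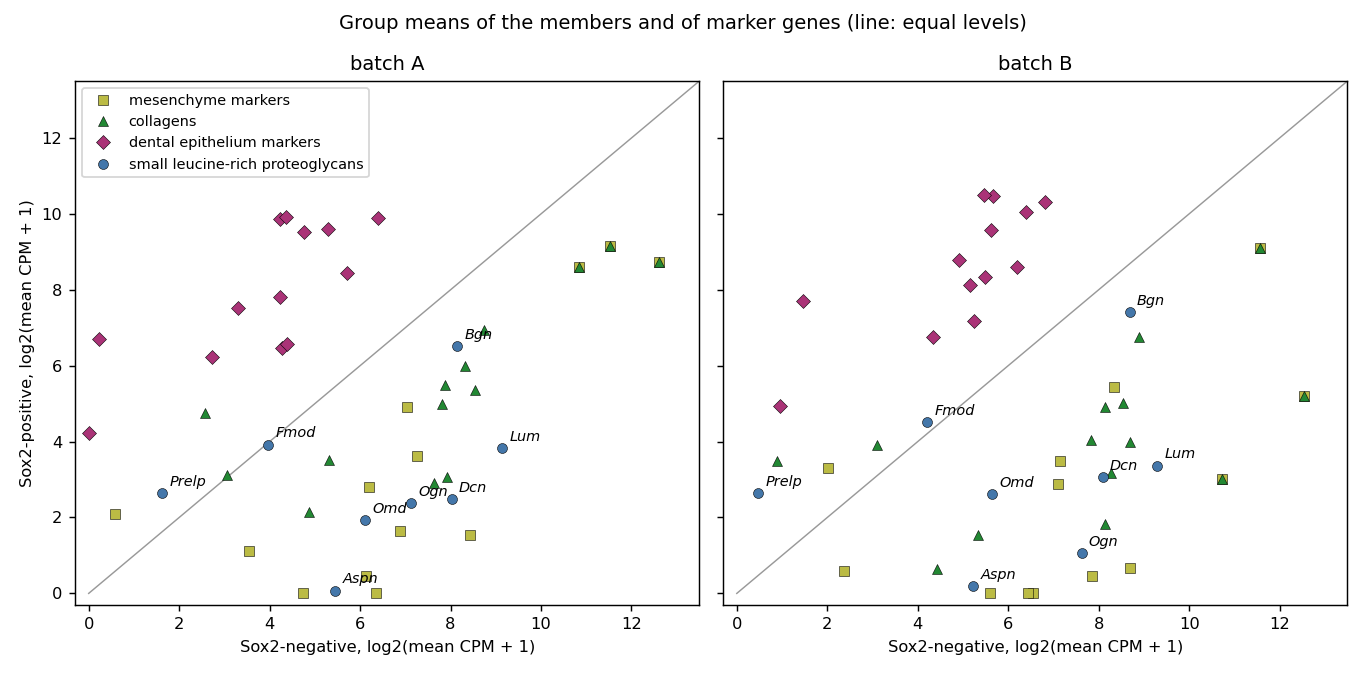
Group mean of each gene in Sox2-positive against Sox2-negative libraries, as log2(mean CPM + 1), in batch A and batch B, for the 8 members, the collagens, and mesenchyme and dental epithelium markers; the line marks equal levels. Dental epithelium markers lie above the line and most mesenchyme markers and collagens below it, Fmod lies near the line, and Bgn lies closer to it than Dcn, Lum, Ogn, Omd and Aspn.

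The genes most like each member were those with the smallest root-mean-square difference between profiles of log2(CPM + 1) over the 23 libraries, each centred on its own mean, among 11069 genes with a mean of at least 10 CPM. The libraries share population and batch, so these distances are a description and carry no test. For Dcn they were Dnm3os (0.597), Cd248 (0.614) and Piezo2 (0.617), and those for Lum included Aldh1a2 (0.534) and Retnlg (0.539). Bgn was followed most closely of all, by Palld (0.256), Cdkn1a (0.287) and Ncoa6 (0.288). Palld, an actin-associated protein, had Sox2-negative and Sox2-positive means of 202 and 54.5 CPM in batch A and 311 and 111 CPM in batch B. For Fmod they were Cdc14b (0.520), Sumf2 (0.531) and Ube2r2 (0.536), those for Ogn included Snai1 (0.735) and Slit3 (0.851), and for Omd they were Wif1 (0.515), Timp1 (0.567) and Fermt3 (0.620). For Aspn they were Gchfr (0.375), Fgf3 (0.440) and Flt4 (0.456). Prelp was below the mean of 10 CPM and was not searched.
Among the members themselves Dcn and Lum, neighbours on chromosome 10, were the closest pair, at 0.612. Lum and Aspn followed at 0.665, Dcn and Aspn at 0.716 and Lum and Ogn at 0.768. On chromosome 13 Aspn was 0.946 from Omd and 0.968 from Ogn, and Ogn and Omd were 1.52 apart. Aspn was nearer to Lum and Dcn than to either neighbour, and Ogn to Lum, while Omd had Aspn as its closest member. The added 1 CPM limits falls that end near 0, as for Aspn, with Sox2-positive means of 0.0531 and 0.149 CPM. The fitted fall of Aspn, -8.02, was larger than those of Dcn, -5.50, and Lum, -5.70. The distances were not computed with another added value. Fmod and Prelp, on chromosome 1, were 1.27 apart, and Fmod was nearer to Bgn, at 1.04. Ogn and Prelp were the furthest apart, at 3.77.

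**Figure D5:**
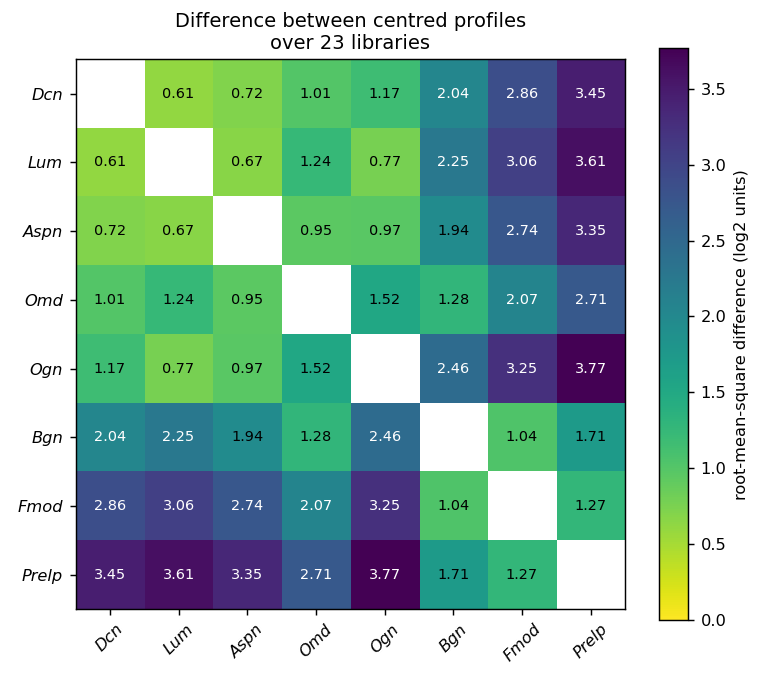
Root-mean-square difference, in log2 units, between the centred log2(CPM + 1) profiles of each pair of members over 23 libraries; yellow is close and purple is far. Dcn, Lum, Aspn, Omd and Ogn differ from each other by up to 1.52, and Prelp lies furthest from them, up to 3.77 from Ogn. Bgn is not apart from all of them, at 1.28 from Omd.

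Of 10 further genes of the family, 6 passed the filter over both batches, and 2 of these were called higher and 3 lower in Sox2-positive cells. Podnl1, a podocan-like member, fell from 61.2 ± 19.0 to 2.18 ± 1.97 CPM in batch A and from 53.0 ± 11.8 to 0.634 ± 0.95 CPM in batch B (log2 fold change -5.38, SE 0.46, edgeR adjusted p 1.51e-10). Chadl, a chondroadherin-like member, rose from 6.06 ± 8.19 to 20.8 ± 3.80 CPM in batch A and from 4.15 ± 2.55 to 13.6 ± 3.75 CPM in batch B (log2 fold change 1.75, SE 0.47, edgeR adjusted p 0.00229). In batch A alone it was not called (edgeR adjusted p 0.0763). Named after their values were seen, Ecm2, which stands 11.7 kb before Aspn in the chromosome 13 row, fell (-5.39, SE 0.61), and Podn fell as well (-4.48, SE 1.00). Epyc, which follows Lum and Kera on chromosome 10, rose from means of 0.746 and 0.0891 CPM to 3.14 and 3.17 CPM (log2 fold change 3.06, SE 1.03, edgeR adjusted p 0.0128), and shares 1041 exon bases with the antisense gene Gm10754. Neither Podn nor Epyc passed the filter in batch A alone. In batch A Epyc had no count in 2 of 6 Sox2-positive libraries and reached 3.43 CPM in a Sox2-negative one, so the ranges overlapped. Tsku was not called over both batches (-0.38, SE 0.19, edgeR adjusted p 0.0861) or in batch A (0.12, SE 0.31), and fell in batch B, from 51.3 ± 9.0 to 27.2 ± 3.74 CPM (-0.84, SE 0.18, edgeR adjusted p 0.00077). Kera, between Lum and Epyc, had at most 3 counts in any library.

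The partners of the family were counted from lists chosen by function, with counts for the comparison over both batches unless another is named. A list of 14 collagens held fibrillar and fibril-associated ones and the type VI chains Col6a1, Col6a2 and Col6a3. Of these 14, 12 were called lower, 1 higher and 1 not, with a median log2 fold change of -3.27. Col12a1 (-5.73, SE 0.36), Col1a1 (-5.58, SE 0.42), Col11a1 (-5.07, SE 0.26) and Col3a1 (-4.91, SE 0.71) led them, Col14a1 rose (2.84, SE 0.50), and Col2a1 was not called. In batches A and B the log2 fold changes were -2.23 and -7.70 for Col3a1 and -3.87 and -7.31 for Col1a1. For Col12a1 they were -5.01 and -6.52, and for Col11a1 -4.93 and -5.12. The interaction was called for 5 of 14 collagens, all lower in batch B, where 7.04% of all genes were called and 4.22% were lower. The list of proteases that process or cleave matrix proteins also held the cleavage enhancers Pcolce and Pcolce2. Of its 11 tested genes 10 were lower and 1, Pcolce2, was not called, with a median of -2.42. Mmp13, a collagenase, was at 1077 ± 301 and 1728 ± 342 CPM in Sox2-negative and at 1.31 ± 1.30 and 0.627 ± 0.64 CPM in Sox2-positive libraries of batches A and B. Pcolce, which enhances collagen propeptide cleavage, fell by 5.35 on the log2 scale (SE 0.36), and the aggrecanase genes Adamts9 (-3.54, SE 0.37) and Adamts4 (-3.24, SE 0.28) fell too. Bmp1, the protease that trims the propeptide of biglycan and of collagens, fell less (-0.75, SE 0.13).
The enzymes that build the sugar chains were called in both directions. Of 21 tested genes for the linkage region and for chondroitin or dermatan sulfate, 6 were higher, 4 lower and 11 not called, with a median of -0.00026, beside -0.12 over all genes tested. In batch B 5 of 20 were higher and 7 lower. Xylt1, a xylosyltransferase that starts the chain, fell (-3.03, SE 0.37), and B3galt6, which extends the linkage region, rose (1.72, SE 0.20). The sulfotransferase gene Chst11 (1.10, SE 0.18) and the epimerase gene Dse (1.00, SE 0.27), which makes dermatan sulfate, rose as well. Of 7 tested keratan sulfate genes 3 were lower, the sulfotransferases Chst2 (-3.22, SE 0.42) and Chst1 (-2.78, SE 0.36) and the galactosyltransferase B4galt1 (-1.25, SE 0.08). The 2 called higher, B3gnt2 and Chst5, were at means of 6.31 CPM or less. The median of the 7 was -0.49, and in batch A 3 of 5 tested were lower and 0 higher, with a median of -1.34. No test compared these lists with the others.
Among 19 ligands and receptors that family members are known to bind or act on, 12 were lower, 2 higher and 5 not called, with a median of -1.40. Bmp2 fell from 14.7 ± 6.04 to 0.508 ± 1.15 CPM in batch A and from 51.3 ± 7.82 to 0.527 ± 0.72 CPM in batch B. Tgfb3 (-3.88, SE 0.37) and the matricellular gene Ccn4 (-3.43, SE 0.39) fell, as did Kdr, an endothelial receptor, from 153 and 57.6 CPM to 0.253 and 0.291 CPM. Tgfb2 (1.16, SE 0.13) and Itgb1 (0.46, SE 0.08) rose. Of 17 tested core proteins of other proteoglycans 6 were higher, 8 lower and 3 not called, with a median of 0.085. Sdc3 (-1.88, SE 0.18), Gpc6 (-1.52, SE 0.18) and Vcan (-0.98, SE 0.17) fell, and Srgn, the core protein of granules in blood cells, was at 104 ± 18.5 and 29.0 ± 6.98 CPM in Sox2-negative libraries and was listed at 0 in every batch A Sox2-positive library. The lists were read beside the 57.5% of all genes called in this comparison.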

How the data were processed

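The authors deposited estimated counts per gene (expected counts, not scaled to depth), and FastQC, Trimmomatic, Salmon and the mm10 build are named, with no version, per the submitters' processing notes; the annotation is not given in the sources used here. Smart-seq2 cDNA was tagmented with Tn5, per the labels' protocols. Only 0.000436% of the nonzero values were whole (tolerance 1e-06), so values were rounded before testing. No column was left unused. Symbols and positions came from GENCODE M21 (54094 of 54347 identifiers matched, 99.5%).

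Counts were tested with edgeR 4.0.16 (TMM scaling, filterByExpr with a minimum count of 10, quasi-likelihood F test, batch as a covariate over both batches, 4 group means for the interaction and the batch contrasts). Two-sided p-values were adjusted over all genes tested (Benjamini-Hochberg, threshold 0.05), and the standard error is the absolute log2 fold change over the square root of F. The fits were tested on simulated counts. Libraries of a group differed by more than sampling noise (lowest chi-square over its degrees of freedom 5.47).

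Members and gene lists were chosen with earlier results of these data known. Named genes were the 8 members and, from each list, at most the 4 largest changes called over both batches with the same sign in each batch and a mean of at least 10 CPM. Further list genes in the text lie outside that rule and were chosen after their values were seen. Alternatives were DESeq2 1.42.0, limma-voom (limma 3.58.1), other scalings and filters, a replicate block, the libraries numbered 1 and 2 of batch B left out, each library left out, and a pseudocount of 0.5. ATAC-seq libraries named in the design were not analysed here. Some genes that the rules would name are not reported here.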

Additional observations from a re-analysis of the deposited data

Results flagged for a closer look

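In 4 of the 32 member and group combinations, 1 library stood apart from the others of its group by more than Dixon's 95% critical value. Chance alone flags about 1 in 20 groups of normally distributed values, and the rate for counts near 0 was not determined. Dcn was at 212 CPM in library 3 of batch B Sox2-negative, where the other 3 were at 288 to 295 CPM. Omd was at 72.9 CPM in library 1 of the same group, against 39.4 to 42.8 CPM in the others. Aspn was at 0.319 CPM in library 6 of batch A Sox2-positive, which is 2 counts, and at 0 in the other 5. With the others at 0, any count in that library would be flagged. Prelp was at 12.9 CPM in library 6 of batch B Sox2-positive, against 1.21 to 5.56 CPM in the other 6.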

How the results depend on the processing

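In all 3 comparisons of the populations, the 6 members that fell were called lower under every alternative fitted. Between the populations of batch A, Fmod changed sign from -0.036 to 0.12 with limma-voom, 0.052 with total-count scaling, 0.024 with no filter and 0.10 with a replicate block, and ran from -0.21 to 0.32 as each library was left out. The number of members with a called interaction rose from 0 to 1 with DESeq2 (Omd) and with no filter (Ogn), and was 0 to 1 as each library was left out. Bgn accounted for the single call between batches in Sox2-negative cells, which became 0 with total-count scaling. In Sox2-positive cells the 2 calls became 1 with limma-voom and ran from 1 to 3 as each library was left out. Signs of members that were not called also changed. Dcn between batches in Sox2-negative cells went from 0.065 to -0.084 with total-count scaling and to -0.044 without the batch B libraries numbered 1 and 2, and ran from -0.035 to 0.18 as each library was left out, while Aspn there ran from -0.46 to 0.037. Prelp between batches in Sox2-positive cells became 0.84 with limma-voom, 0.025 with no filter, 0.0094 with a filter at a mean of 10 counts and 0.030 without those numbered libraries, and ran from -0.40 to 0.47. Without them Aspn became -1.73 for the interaction and -1.77 between batches in Sox2-positive cells. The causes were not tested.

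Libraries of a batch with the same number deviated from their group means with r of -0.0226 to 0.0514 across genes, and only number 2 of batch B correlated best with its own number, so the numbers were not taken as pairs. With a replicate block, Prelp was no longer called over both batches (2.44, edgeR adjusted p 0.050) and was not fitted in batch B, so that 6 members were called in each of the 3 population comparisons. Of all genes, 536 had a called interaction with the block and 481 without the batch B libraries numbered 1 and 2, against 1210. Between batches 3113 genes were called in Sox2-negative cells with limma-voom and 754 without those libraries, against 1924, and in Sox2-positive cells 1159 without them, against 1785. Depth limits Aspn, Ogn, Prelp and Omd most, which had 3 counts or fewer in at least 1 library of at least 1 group.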
